A study of Mus musculus with 40 samples.

Results

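The response of the left ventricle to pressure overload was measured in ONOFF mice, as 10 libraries taken after transverse aortic constriction (TAC) against 10 taken after a sham operation, out of 40 libraries in the study. The members are the libraries titled ONOFF TAC or ONOFF Sham, with 5 females and 5 males in each group. ONOFF mice are dnOGAh animals on the FVB/NJ background, which carry a heart-restricted, doxycycline-inducible, dominant-negative form of O-GlcNAcase (OGA). All 20 mice ate doxycycline food for 2 weeks and standard chow for 2 weeks, were then operated, and gave left ventricular tissue 9 weeks later. The 20 control libraries (Con) had the same diet schedule, the same 2 operations and 5 mice of each sex per operation, and serve here only to show where the ONOFF response differed. The promoter behind the transgene, the number of founder lines, the age of the mice and the pressure gradient across the band are not given in the sources used here. Nothing states whether libraries within a group came from separate litters or days, so p-values measure the spread between these libraries.

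TAC narrows the aorta, so the left ventricle must eject against a raised pressure and its wall thickens. Under that load cardiomyocytes are known to re-express fetal genes, among them natriuretic peptides and skeletal actin, and to lower the genes that burn fatty acids in mitochondria. Fibroblasts of the ventricle take on an activated state and lay down collagen and other matrix. Proteins inside the cell carry the sugar O-GlcNAc, which OGT attaches and OGA takes off, and a dominant-negative OGA is used to raise O-GlcNAc in heart muscle.

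The deposited values are normalized counts, and they summed to 38793805 to 45121268 in the sham and 35176220 to 41131111 in the TAC libraries. Sequencing depth before normalization is unknown, and the tests compare levels between libraries, not between genes. Remarks on the abundance of genes and summed values are descriptive only. The tests covered the 15783 of 22676 genes that reached a value of 10 in 5 or more of the 20 libraries. Xist and genes of the Y chromosome matched the sex label in every ONOFF library. Markers of ventricular cardiomyocytes were abundant throughout, with a summed value of 1980160 to 3925940. Transcripts of atrial muscle were not spread evenly. Myl7, the atrial myosin light chain, stood at 524.7 or above in 8 libraries (5 sham and 3 TAC, up to 7010.0 in TAC F 1) and at 110.2 or below in the other 12. Values without those 8 libraries, a choice made after seeing the values, are therefore given for the natriuretic peptides, for mitochondrial genes, and wherever the omission gave or ended a call of a named gene or moved a called value or a list count of 4 or more by over 1.5 times. The first principal component (23.0% of the variance) separated the operations, with sham libraries at -40.9 to -15.8 and TAC libraries at 12.5 to 47.4, except TAC F 1 at -6.64, between the groups. In bulk tissue, fewer cells of a type and less RNA per cell cannot be told apart.

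Oga, the gene for the targeted enzyme, ranged from 3019 to 8294 (median 5927) in sham and from 3058 to 5579.8 (median 3537) in TAC hearts. The groups overlapped widely, and 9 of 10 TAC libraries lay under the sham mean of their sex. The gene fell by 0.56 on the log2 scale (SE 0.157, limma adjusted p = 0.0106), by 0.24 in females and 0.88 in males, a difference between the sexes that did not pass (adjusted p = 0.49). The table holds 1 Oga value per library, so transcripts of the transgene and of the mouse gene are not separated. In control hearts mean Oga was 3311 in sham and 2922 in TAC females, and 2931 and 3054 in males. The same means in ONOFF hearts were 4884 and 4105 in females, and 6671 and 3528 in males. The cause of the fall was not tested. Ogt had sham values of 1491 to 2864 and TAC values of 1658 to 2490.1, a log2 difference of -0.09 (adjusted p = 0.601). Of the 14 tested genes of hexosamine synthesis and O-GlcNAc cycling, Oga was lower and Gnpda1, which converts glucosamine-6-phosphate back towards glycolysis, was higher (0.38, adjusted p = 0.003), and the other 12 were not called.

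TAC changed 4235 of the 15783 genes (26.8%) at a Benjamini-Hochberg adjusted p below 0.05, with 2178 higher (13.8%) and 2057 lower (13%). These shares are the background for every count that follows. The median change over all genes was 0.0076 on the log2 scale, which is also used for every change below. Changes of at least 1 were found in 357 higher and 266 lower genes. In 473 genes (3%) the 10 TAC values and the 10 sham values did not overlap, 241 above (1.53%) and 232 below (1.47%). Without the 8 libraries rich in Myl7, 3598 genes were called and 3071 of them were among the 4235.

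**Figure D1:**
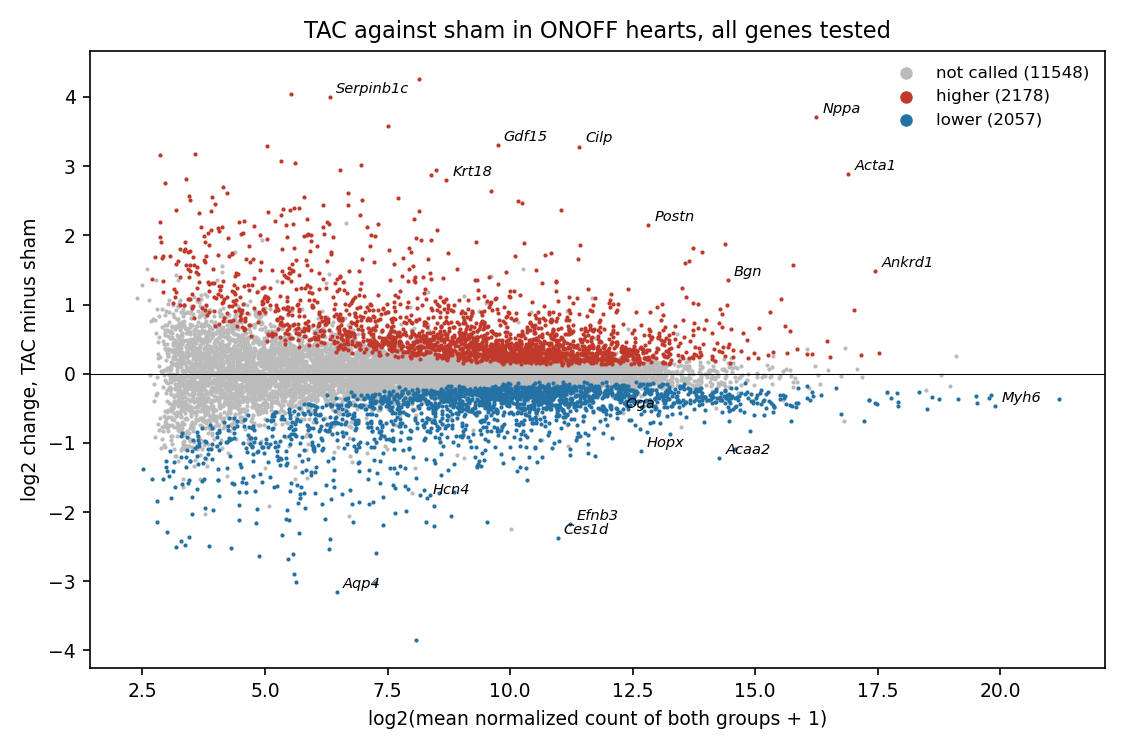
Log2 change (TAC minus sham, vertical axis) against log2 of the mean normalized count of both groups plus 1 (horizontal axis), with 1 point per tested gene of the 20 ONOFF libraries. Called genes are coloured, 2178 higher and 2057 lower, and the natriuretic peptide gene Nppa and the actin gene Acta1 stand out by being both abundant and strongly raised.

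Predicted genes aside, the largest rises among genes whose higher group averaged 100 or more were Serpinb1c (4.00), a serpin protease inhibitor, Nppa (3.71), Adamts20 (3.58), a secreted metalloprotease, Gdf15 (3.31) and Cilp (3.28). Large falls were those of Aqp4 (-3.16), a water channel, Gabrg3 (-2.53), a GABA receptor subunit, Ccl11 (-2.39), a chemokine, and Ces1d (-2.38), a lipid-hydrolysing carboxylesterase of fat cells and liver. The transcription cofactor Vgll2 rose from 146 to 334 (median 201) to 735 to 1921 (median 1540.0), and the T-box factor Tbx15 from 38.3 to 83.9 (median 58.2) to 140.0 to 478 (median 382). Neither pair of groups overlapped, with changes of 2.63 (SE 0.176, adjusted p = 1.55e-09) and 2.54 (SE 0.19, adjusted p = 4.08e-09). Krt18, a simple keratin, rose by 2.80, also without overlap. Each gene in this paragraph was displaced to the same side in 10 of 10 TAC libraries and was called in all 20 single omissions of a library. These genes were chosen as large called changes, and 3434 of all 4235 called genes also kept the call in all 20 omissions.

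Among the natriuretic peptides, Nppa, the precursor of atrial natriuretic peptide, ranged from 4338 to 25876 (median 10138) in sham and from 50127 to 236771 (median 156483) in TAC hearts. Every TAC value lay above every sham value, and the females TAC F 1, F 2 and F 3 held the 3 lowest. The change was 3.71 (SE 0.308, adjusted p = 8.63e-08). Nppb, the precursor of B-type natriuretic peptide, went from 5275 to 16625 (median 7434) to 21194 to 49955 (median 34892), again without overlap, a rise of 1.87 (SE 0.223, adjusted p = 3.28e-06). Npr3, the receptor that clears both peptides, rose as well, from 696 to 1036 (median 936) to 1138 to 2332 (median 1838), by 1.03 (SE 0.0958, adjusted p = 7.68e-08). Corin, the protease that cuts the Nppa precursor into active hormone, moved the other way, from 3558 to 5638 (median 4449) to 2549 to 4019 (median 2935). Its groups overlapped in part, and it fell by 0.53 (SE 0.0925, adjusted p = 0.000131). The guanylyl cyclase receptor genes Npr1 (-0.01) and Npr2 (-0.07) and the protease gene Furin (-0.09) were not called, and Pcsk6, a further convertase, fell by 0.42. Without the Myl7-rich libraries the change of Nppa was 4.34 and that of Nppb 2.01, and the 9 tested atrial markers held 0 higher and 3 lower genes in all 20 libraries, with a summed value of 4566 to 20474 in sham and 2964 to 34639 in TAC hearts.

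Skeletal alpha-actin, Acta1, stood at 13738 to 57342 (median 25377) in sham and 116782 to 307915 (median 207539) in TAC hearts. The groups lay far apart, and the gene rose by 2.88 (SE 0.21, adjusted p = 1.04e-08). Of the fetal and alternative sarcomere genes, 3 of 15 were higher (also Myh10, a non-muscle myosin, 0.61, and Actn1, a non-muscle actinin, 0.49), 1 was lower (Myh7b, a slow-type myosin, -0.43) and the median was -0.28. Without the Myl7-rich libraries that median was 0.13 over 11 tested genes, with 4 higher, and it was -0.03 over 12 genes with a mean filter of 50, so its sign depends on the libraries and genes used. Myh7, the slow myosin heavy chain, covered 73576 to 170754 in sham and 57651 to 191350.0 in TAC hearts, with wide overlap and a change of 0.37 that did not pass in all 20 libraries (adjusted p = 0.145). Without the Myl7-rich libraries the change of Myh7 was 0.69 and passed (adjusted p = 0.000295). Its change was -0.13 in females and 0.88 in males, and the difference did not pass (adjusted p = 0.49). Of 19 adult sarcomere genes, 8 were lower and 4 higher. Tnni3, cardiac troponin I, fell by 0.69 and Myl2, the ventricular regulatory light chain, by 0.47. The thick filament protein gene Mybpc3 rose by 0.30, and the giant scaffold gene Ttn, at -0.02, was not called. The 4 higher calls became 2 without sham M 1, sham M 3, TAC F 5 or TAC M 5, and the 8 lower calls became 5 under quantile normalization.

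Genes of the stretch-responsive ankyrin, Xin and LIM families, which sit at the Z-disc and intercalated disc of the muscle cell, gave 12 of 15 higher and 2 lower calls, with a median of 0.69. Ankrd1, an ankyrin repeat protein that links titin to the nucleus, ranged from 72468 to 138466 (median 88857) in sham and from 181922 to 326185 (median 276513) in TAC hearts, a rise of 1.48 (SE 0.106, adjusted p = 2.55e-09). Xirp2, an actin-binding Xin protein, went from 22554 to 30872 (median 27563) to 45880.3 to 109094 (median 90516), by 1.58 (SE 0.114, adjusted p = 2.91e-09). In neither gene did the groups overlap. The LIM protein gene Fhl1 stood at 4593 to 6298 (median 5974) in sham hearts and spread from 8307 to 42896 (median 17579) after TAC, with TAC M 3 far above the rest, a rise of 1.63 (SE 0.192, adjusted p = 2.27e-06). Synpo2l, a Z-disc actin organiser, rose by 1.75 and Ankrd2, the muscle ankyrin of stretch, by 3.01 with overlap (4.47 to 38.7 in sham, 17.0 to 925 in TAC). The exceptions were Fhl2, a LIM partner of titin, which fell by 0.59, and Fhl3, which fell by 0.22 but lost its call in 15 of 20 single omissions and without the Myl7-rich libraries (adjusted p = 0.164). The related calcineurin readout Rcan1, an inhibitor of that phosphatase and a target of NFAT, rose by 1.60 without overlap, whereas 12 of 16 calcineurin and MEF2 genes were not called.

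The upstream sequences of 3 of these raised genes are shown because each contains CATTCC, the core of the MCAT element that TEAD factors are known to bind in muscle promoters. Each run holds the 250 bases before the gene start, read 5′ to 3′ on the gene's strand, from RefSeq on build GRCm38.p6, and capitals mark CATTCC or its reverse complement GGAATG. The windows lie at chr8:123894776-123895025 (minus strand, Acta1), chr4:147985650-147985899 (plus strand, Nppb) and chr19:36119845-36120094 (minus strand, Ankrd1).
Acta1: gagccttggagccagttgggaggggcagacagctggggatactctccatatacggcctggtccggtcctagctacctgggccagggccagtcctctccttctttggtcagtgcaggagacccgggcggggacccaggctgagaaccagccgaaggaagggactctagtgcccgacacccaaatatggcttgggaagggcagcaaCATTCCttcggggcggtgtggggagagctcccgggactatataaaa
Nppb: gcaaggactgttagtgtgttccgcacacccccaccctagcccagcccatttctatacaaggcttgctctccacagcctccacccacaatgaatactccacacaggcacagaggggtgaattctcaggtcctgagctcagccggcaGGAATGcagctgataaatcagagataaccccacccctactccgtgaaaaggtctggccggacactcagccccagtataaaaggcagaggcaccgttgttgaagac
Ankrd1: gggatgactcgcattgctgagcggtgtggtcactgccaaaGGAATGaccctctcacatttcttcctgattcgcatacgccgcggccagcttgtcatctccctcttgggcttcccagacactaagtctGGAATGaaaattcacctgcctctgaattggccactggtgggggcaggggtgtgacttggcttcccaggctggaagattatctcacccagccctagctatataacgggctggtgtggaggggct
The motif starts 46 bases before the gene start in Acta1, 105 in Nppb, and 210 and 123 in Ankrd1. On either strand, it was present in the windows of 15.1% of 1644 genes called higher, 15.0% of 1522 called lower and 12.5% of 8189 not called, and in 14.4% of all 27025 genes of the RefSeq table. Of the 14 stretch-responsive genes with a window, 4 held it (28.6%), namely Ankrd1, Ankrd23, Flnc and Pdlim3, and the first 3 of these were higher while Pdlim3 was not called (0.11). A match describes these letters only.

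**Figure D2:**
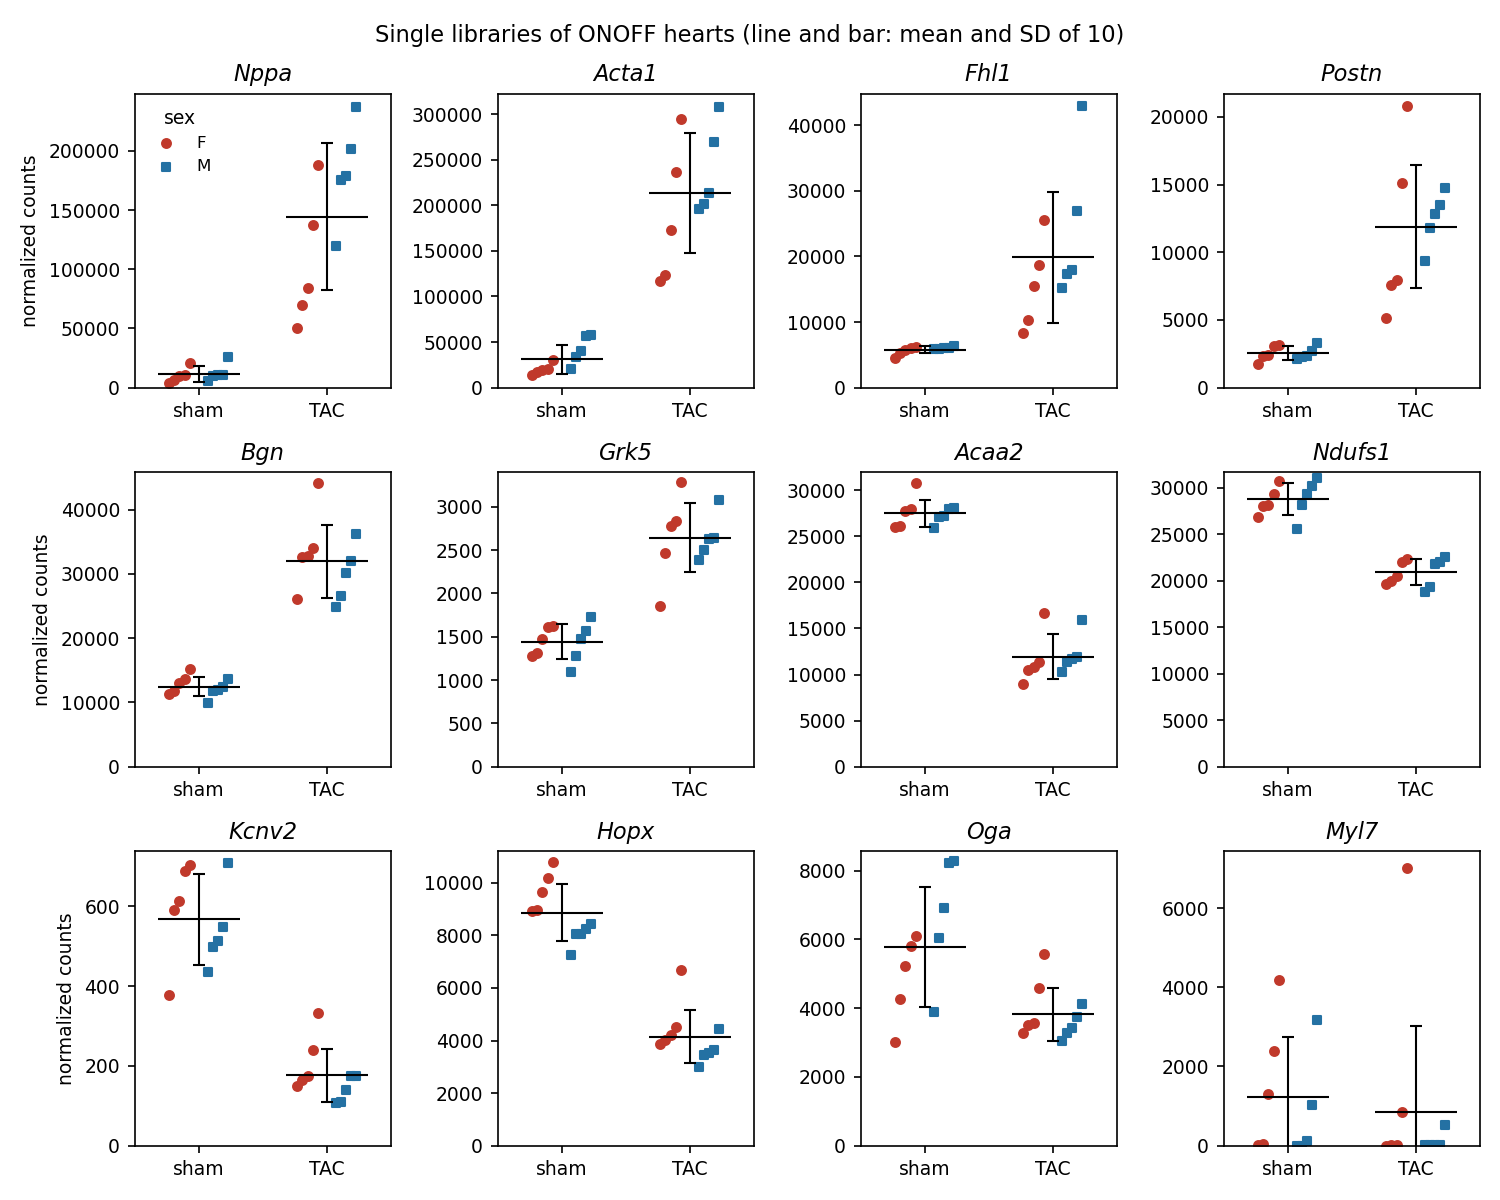
Normalized counts (vertical axes) of 12 genes in the 10 sham and 10 TAC libraries of ONOFF hearts, with 1 point per library, coloured by sex, and a line and bar for the mean and SD of 10. Nppa, Acta1, Fhl1, Postn, Bgn and Grk5 lie higher and Acaa2, Ndufs1, Kcnv2 and Hopx lower after TAC with no overlap, Oga overlaps, and the atrial gene Myl7 is high in 8 libraries of both groups.

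Collagen genes rose as a set of single calls, 23 of 28 higher and 1 lower with a median of 0.69. Col1a1, the main fibrillar chain, ranged from 5342 to 10494 (median 7679.8) in sham and from 12559.8 to 20255 (median 17199) in TAC hearts. The 2 ranges did not meet, and the rise was 1.11 (SE 0.103, adjusted p = 7.25e-08). Col8a1, a short-chain network collagen, rose further, from 706 to 1368 (median 1202) to 1889.5 to 5837 (median 4528), by 1.86 (SE 0.157, adjusted p = 4.02e-08). Col12a1 (2.08), which coats fibrils, and Col11a1 (2.36), a fibril-nucleating chain, had larger changes at lower levels, with highest sham values of 285 and 48.2. Col4a1, a basement membrane chain, rose by 0.59 and Col3a1, a fibrillar chain, by 0.58. Col6a6, a beaded-filament chain, was the exception, falling from 271 to 787 (median 541) to 78.9 to 434 (median 174), by 1.47 (SE 0.289, adjusted p = 0.000655).

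Enzymes that hydroxylate, trim and cross-link collagen gave 15 of 26 higher and 3 lower calls. P3h2, a prolyl 3-hydroxylase of basement membrane collagen, stood at 335 to 501 (median 429) in sham and 624.7 to 1427 (median 1074) in TAC hearts, a rise of 1.39 (SE 0.122, adjusted p = 4.23e-08). Lox, the founding lysyl oxidase that cross-links collagen and elastin, went from 81.8 to 208 (median 133) to 122 to 974 (median 343), with some overlap, by 1.35 (SE 0.218, adjusted p = 5.98e-05). All 4 tested relatives of Lox also rose, Loxl3 by 1.11, Loxl4 by 0.97, Loxl2 by 0.86 and Loxl1 by 0.65. The lower genes were the procollagen proteases Adamts3 (-1.04) and Adamts14 (-0.60), both lost when all 40 libraries were fitted (adjusted p = 0.106 and 0.322), and the hydroxylation-complex gene P3h4 (-0.68). The chaperone gene Serpinh1 (0.25) was not called. The change of Adamts3 was -1.63 without the Myl7-rich libraries.

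Matricellular, elastic fibre and proteoglycan genes gave 30 of 42 higher and 2 lower calls, with a median of 0.81, and 11 of the 42 had no overlap between groups. Postn, periostin of activated fibroblasts, ranged from 1768 to 3288 (median 2375) in sham and from 5150.0 to 20770.3 (median 12337) in TAC hearts, a rise of 2.14 (SE 0.194, adjusted p = 1.31e-07). Cilp, a matrix protein of cartilage and scar, went from 301 to 805 (median 416) to 1295 to 8593 (median 4699.6), by 3.28 (SE 0.272, adjusted p = 7.16e-08). TAC F 1 was the lowest TAC library for both genes, yet neither gene overlapped between the groups. Bgn, a small proteoglycan that binds collagen, was raised most evenly, from 9980.1 to 15181 (median 12124) to 24832 to 44072 (median 32338), by 1.35 (SE 0.0861, adjusted p = 9.79e-10). Thbs4, a thrombospondin of muscle and tendon, rose by 2.36, Ccn2, the connective tissue growth factor, by 1.82, Tnc, tenascin C, by 1.79 and the microfibril gene Mfap4 by 1.71. Thbs2, a thrombospondin that limits vessel growth, fell instead, from 853 to 2116 (median 1385) to 570.5 to 1465 (median 751), by 0.73 (SE 0.179, adjusted p = 0.00404), and Ogn, the proteoglycan osteoglycin, fell by 0.30.

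Metalloproteases and their inhibitors split, with 11 of 28 higher and 5 lower. The aggrecanase-type protease gene Adamts8 rose from 20.2 to 84.6 (median 68.8) to 142 to 303 (median 267), by 1.99 (SE 0.222, adjusted p = 6.38e-07), and the inhibitor gene Timp1 by 1.58. The matrix protease genes Mmp2 (0.46) and Mmp14 (0.56) rose less, and Mmp9, a gelatinase of inflammatory cells, fell by 1.01. The 5 lower calls became 3 in 7 of 20 single omissions (sham F 5, M 1 and M 3, and TAC F 5, M 1, M 3 and M 4). Of 42 genes of the TGF-beta family and secreted stress factors, 19 were higher and 5 lower. Gdf15, a stress hormone of the TGF-beta superfamily, ranged from 74.3 to 563 (median 129.7) in sham and from 535 to 2842 (median 1453) in TAC hearts, almost without overlap, a rise of 3.31 (SE 0.338, adjusted p = 5.9e-07). Tgfb2, a ligand that activates fibroblasts, rose by 1.71, with Tgfb3 at 0.75 and Tgfb1 at 0.39. The latent TGF-beta binding proteins went apart: Ltbp2 rose by 2.49 from 198 to 691 (median 283) to 557 to 3197 (median 1833), while Ltbp1 fell by 0.73 (SE 0.0754, adjusted p = 2.65e-07) from 1762 to 2171 (median 1999) to 950.0 to 1489 (median 1218) with no overlap.

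Cell type markers changed unevenly. Of 13 tested markers of activated fibroblasts, 10 were higher and 0 lower with a median of 1.35, and their summed value was 10021 to 15551 in sham and 18806 to 45852 in TAC hearts. Lox, Postn and Thbs4 are among these markers and were already counted in the cross-linking and matricellular lists above. The counts of these lists are therefore not independent. Meox1, a homeobox factor of activated fibroblasts, rose without overlap by 1.34, and Fap, a fibroblast activation protease, was not called (0.11). Resting fibroblast markers gave 5 of 14 higher and 2 lower (5 lower without TAC M 5 and 6 with library weights), with a summed value of 105444 to 165403 in sham and 115583 to 172231 in TAC hearts, and among them the secreted inhibitor gene Pi16 rose by 1.01 while the ferritin receptor gene Scara5 fell by 0.87 and the matrix gene Dpt by 0.65. Endothelial markers barely moved, with 1 of 14 called (Flt1, a VEGF receptor, 0.20, lost in 13 of 20 single omissions and without the Myl7-rich libraries, adjusted p = 0.389) and sums of 46893 to 59249.5 in sham and 47763 to 58683 in TAC hearts. Macrophage markers had 4 of 17 higher, among them the adhesion receptor gene Adgre1 (0.64), but this count was 2 without the Myl7-rich libraries or without sham M 2, M 3 or M 5 or TAC F 5, M 3, M 4 or M 5, and 7 without sham F 1 or M 4. Of 12 smooth muscle and pericyte markers, 3 were called higher, including Des (0.92), the desmin gene that cardiomyocytes also express, and 1 lower. Their median was -0.14, and called or not, 4 rose and 8 fell. Ventricular cardiomyocyte markers gave 7 of 10 lower and 0 higher with a median of -0.30 (4 lower and a median of -0.15 under quantile normalization) and sums of 2659420 to 3925940 in sham and 1980160 to 2830930 in TAC hearts. Fast skeletal muscle had 1 of 6 markers called (Myh8, perinatal myosin, 2.12, 26.2 on average after TAC), red cells 0 of 6, neutrophils and lymphocytes 1 of 11 (Cd3g, lower), and fat cells 2 of 9 (Ces1d and the lipase gene Lipe, both lower, the latter lost without sham F 3, TAC F 4, TAC M 1 or TAC M 2), with adipocyte sums of 4245 to 12426 in sham and 1687 to 5008 in TAC hearts. Nerve and Schwann cell markers had 4 of 8 lower, Dbh, the enzyme of noradrenaline synthesis in sympathetic nerves, by 1.39 and the myelin gene Mbp by 1.00, while the adhesion gene Ncam1 rose by 1.40. The part of these shifts in the gene changes above was not tested.

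Of 48 genes for fatty acid uptake and oxidation, 35 were lower and 0 higher, with a median of -0.46. Acaa2, the thiolase of the last step of mitochondrial beta-oxidation, ranged from 25912 to 30831 (median 27510.1) in sham and from 8999.9 to 16639 (median 11380.4) in TAC hearts. Its ranges were far apart, and it fell by 1.22 (SE 0.087, adjusted p = 2.55e-09). Ech1, an isomerase for unsaturated fatty acids, fell by 1.08 from 29458 to 44747 (median 31149.6) to 11364 to 22075 (median 15068), again with no overlap. The long-chain dehydrogenase gene Acadvl fell by 0.60, the trifunctional protein gene Hadha by 0.56 and the uptake transporter gene Slc27a1 by 0.86. Cpt1b, which controls entry of fatty acids into mitochondria, fell by 0.25, and the uptake receptor gene Cd36 (-0.20, adjusted p = 0.0842), the binding protein gene Fabp3 (-0.05) and the kinase gene Pdk4 (-0.50, adjusted p = 0.528) were not called in all 20 libraries. Without the Myl7-rich libraries Cd36 fell by 0.33 and passed (adjusted p = 0.00409). Of the regulators known to drive these genes, Ppargc1a, the coactivator PGC-1alpha, fell by 0.38 and the Krüppel-like factor gene Klf15 by 0.51, while the nuclear receptor genes Ppara (-0.16) and Esrra (-0.21) were not called. In all, 7 of 22 such regulators were lower and 0 higher, and 4 were lower without sham M 1 or M 2 or without TAC M 3 or M 4.

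Of 21 tricarboxylic acid cycle genes, 20 were lower and 0 higher, with a median of -0.38, and 9 showed no overlap. Sdha, the flavoprotein of succinate dehydrogenase, ranged from 40067 to 48953 (median 44719) in sham and from 28325 to 34163 (median 31368) in TAC hearts, a fall of 0.50 (SE 0.0477, adjusted p = 1.02e-07). Citrate synthase, Cs, fell by 0.46, also without overlap. In the respiratory chain, 32 of 37 nuclear complex I genes and 35 of 39 genes of complexes III, IV and V and cytochrome c were lower, with 0 higher and medians of -0.34 and -0.38. Ndufs1, the largest complex I subunit, went from 25611 to 31027 (median 28752) to 18830.2 to 22595 (median 21150.5), by -0.46 (SE 0.0509, adjusted p = 5.55e-07). Cox7a1, a heart isoform subunit of cytochrome oxidase, had the largest fall of its list, 0.70 (SE 0.094, adjusted p = 6.69e-06), from 16585 to 29188 (median 18486) to 9522 to 15409 (median 11629). Of 15 mitochondrially encoded transcripts, 12 were lower, and they made up 17.4% to 21.4% of all values in sham and 13.4% to 19.4% in TAC hearts. That count was 2 under quantile normalization and 7 when all 40 libraries were fitted together. Without the Myl7-rich libraries, 24 complex I genes, 27 of complexes III to V and 11 mitochondrial transcripts were lower.

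The catabolism of branched-chain amino acids and ketone bodies had 20 of 25 genes lower, with a median of -0.46. Ppm1k, the phosphatase that switches on branched-chain keto acid oxidation, fell from 2256 to 3311 (median 2679) to 1122 to 1718 (median 1390.0), by 0.98 (SE 0.0803, adjusted p = 1.61e-08). Subunits of the keto acid dehydrogenase fell too, Bckdhb by 0.69 and Bckdha by 0.57. Bdh1, which interconverts ketone bodies, was the 1 gene called higher. It rose from 6010.1 to 12143 (median 7581) to 9754 to 17770.2 (median 12596), by 0.69 (SE 0.111, adjusted p = 5.48e-05). In glucose handling, 13 of 37 genes were lower and 5 higher. Pfkp, the platelet isoform of phosphofructokinase, rose by 1.06 and Hk1, a hexokinase, by 0.40, while the muscle enolase gene Eno3 fell by 0.68 and Pfkfb1, which makes and breaks the activator of phosphofructokinase, by 2.19. Nmrk2, a kinase that makes NAD from nicotinamide riboside, rose by 2.47 from 180.4 to 999.8 (median 269) to 771 to 3766 (median 1874), and Slc6a8, the creatine transporter, by 0.54. In the same list of phosphocreatine and NAD supply, 8 of 15 genes were lower, among them muscle creatine kinase, Ckm (-0.33).

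**Figure D3:**
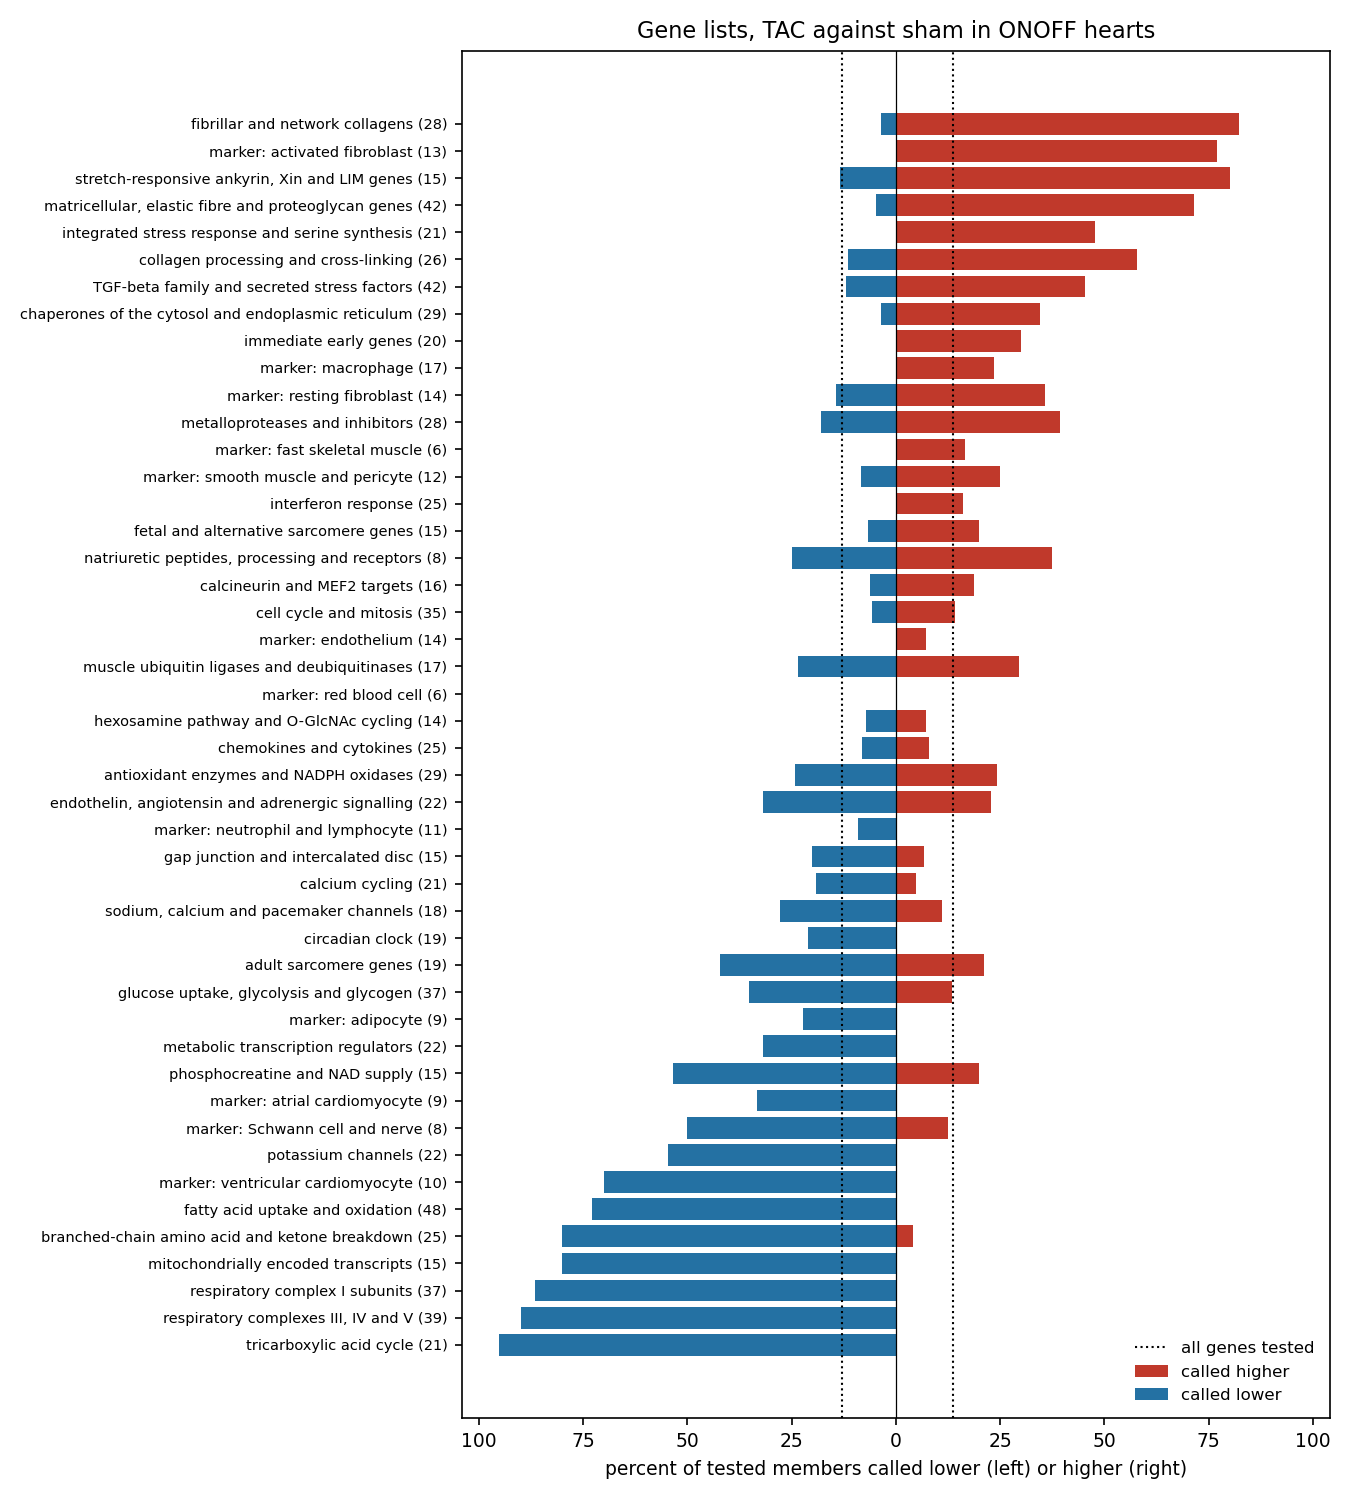
Percent of the tested members (number in brackets) of 46 gene lists called lower (bars to the left) or higher (bars to the right) after TAC in ONOFF hearts, with dotted lines at the shares over all tested genes (13% lower, 13.8% higher). Collagens, activated fibroblast markers and stretch-responsive genes reach the right, and mitochondrial energy genes reach the left.

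Of 22 potassium channel genes, 12 were lower and 0 higher, with a median of -0.33. Kcnv2, a silent subunit that alters Kv2 channels, fell from 379 to 708 (median 569) to 107 to 334 (median 169.6), by 1.73 (SE 0.154, adjusted p = 4.87e-08). Kcnj3, a G-protein-gated channel, fell by 1.37, Kcnd2, a transient outward channel, by 1.21, Kcnh2, a rapid delayed rectifier, by 0.90, Kcnj2, the inward rectifier, by 0.83 and Kcnq1, a slow delayed rectifier, by 0.65. The pacemaker channel gene Hcn4 stood at 353 to 655 (median 450.3) in sham and at 58.3 to 226 (median 132) in TAC hearts, with no overlap and a fall of 1.80 (SE 0.206, adjusted p = 8.99e-07), and the fall was 1.76 without the Myl7-rich libraries. The sodium channel gene Scn10a fell by 1.74 and the T-type calcium channel gene Cacna1g by 1.05 in all 20 libraries. Without the Myl7-rich libraries their changes were similar in size, -1.57 (adjusted p = 0.0865) and -1.08 (adjusted p = 0.0986), but neither passed in that smaller set. In the junctions, Gja3 (-0.81), a connexin, and the desmosomal cadherins Dsg2 (-1.05) and Dsc2 (-0.72) fell, and Gja1 (-0.10), the main ventricular connexin, was not called.

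Calcium cycling genes had 4 of 21 lower and 1 higher. Atp2a2, the SERCA2 pump that refills the sarcoplasmic reticulum, ranged from 377509 to 482587 (median 433166) in sham and from 221493 to 379415 (median 324278) in TAC hearts, touching only at the edges, a fall of 0.51 (SE 0.0796, adjusted p = 4.35e-05) that lost its call under quantile normalization (adjusted p = 0.11). Its inhibitor gene Pln fell by 0.42 and the store protein gene Hrc by 0.47, both without overlap, and Ryr2, the cardiac release channel, was not called (-0.28, adjusted p = 0.181). Ryr3, a minor release channel isoform of the heart, rose from 38.7 to 112 (median 62.6) to 113 to 1307 (median 555), by 2.87 (SE 0.33, adjusted p = 1.69e-06). Among receptors, Adra1b, an alpha-1 adrenergic receptor, fell from 1189 to 2010.0 (median 1697) to 414 to 927 (median 686), by 1.34 (SE 0.129, adjusted p = 1.14e-07), and Adrb1, the main beta receptor of the heart, by 0.50. Grk5, a kinase that desensitizes such receptors, rose from 1097 to 1725 (median 1475) to 1859 to 3288 (median 2634), by 0.87 (SE 0.0931, adjusted p = 3.97e-07). Edn3, an endothelin ligand, rose by 1.93 and Ace, angiotensin-converting enzyme, by 0.93, while the angiotensin receptor gene Agtr1a fell by 0.56 and Edn1 (-0.07) was not called. Altogether 5 of 22 genes of these signalling systems were higher and 7 lower.

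Stress genes shifted in part. The integrated stress response and serine synthesis list had 10 of 21 higher and 0 lower, led after Gdf15 by Mthfd2, a mitochondrial folate enzyme (1.40, from 90.4 to 299 in sham to 251 to 615 in TAC hearts) and the proline synthesis genes Pycr1 (1.19) and Aldh18a1 (0.77). Of 29 chaperone genes, 10 were higher and 1 lower, with the small heat shock gene Hspb1 at 0.86, the inducible cytosolic chaperone gene Hsp90aa1 at 0.73 and Hspa5, the endoplasmic reticulum chaperone, at -0.23 (adjusted p = 0.0616 under quantile normalization). Leaving out the Myl7-rich libraries left 6 chaperone genes higher. The oxidase gene Nox4, which makes hydrogen peroxide, rose by 1.62 from 38.9 to 95.2 (median 70.2) to 92.6 to 343 (median 224). The antioxidant list held 7 higher and 7 lower genes of 29, and mitochondrial Sod2 fell by 0.34. Of 17 muscle ubiquitin ligases and deubiquitinases 5 were higher, among them Uchl1, a ubiquitin hydrolase, from 498 to 799 (median 629) to 835 to 1933 (median 1306), by 1.11 (SE 0.132, adjusted p = 1.34e-06), and 4 were lower. Without TAC F 2 that list had 8 higher genes. The lower count was 2 without the Myl7-rich libraries. The atrophy ligase genes Trim63 (-0.15) and Fbxo32 (0.32, adjusted p = 0.0525) were not called in all 20 libraries, and Fbxo32 passed without the Myl7-rich ones (0.40, adjusted p = 0.0155).

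Of 20 immediate early genes, 6 were higher, with the zinc finger factors Egr2 (2.35) and Egr3 (1.51) and with Myc (1.13), and 0 were lower. Myc, a growth regulator, stood at 77.9 to 164 (median 125) in sham and 203 to 353 (median 278) in TAC hearts without overlap. Cell cycle genes had 5 of 35 higher and 2 lower. The cyclin gene Ccnd2 (0.96) rose, Cenpf, a kinetochore protein, fell by 2.14, and the proliferation markers Mki67 (0.52) and Top2a (0.48) were not called. The higher count was 11 without sham F 2, 9 without sham M 4, 8 without TAC M 3 and 2 without the Myl7-rich libraries. Interferon genes had 4 of 25 higher (2 without the Myl7-rich libraries), chemokines and cytokines 2 of 25 higher and 2 lower, and clock genes 4 of 19 lower, led by the output factor Hlf (-1.25). The clock count was 1 or 2 without sham F 3, F 5, M 1 or M 2 or without TAC F 3, F 5, M 3 or M 4.

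Within each sex, 5 TAC libraries were set against 5 sham libraries in a fit of 4 group means. In females 2602 genes were called (16.5%), 8.44% higher and 8.05% lower, and in males 2494 (15.8%), 8.29% higher and 7.51% lower, and 1339 genes were called in both, which is 51.5% of the female and 53.7% of the male calls. The test of the difference between the sexes by limma called 0 of 15783 genes, with 1587 at an unadjusted p below 0.05. The respiratory chain lists had the widest gap in counts, 34 complex I genes lower in females (28 to 36 in single omissions) and 3 in males (5 without TAC F 2), with medians of -0.51 and -0.21. For complexes III to V the counts were 34 and 6 (3 without sham M 1, sham M 4 or TAC M 1) and the medians -0.52 and -0.23. No single gene of these lists passed the test of the difference, which had an unadjusted p below 0.05 for 7 of 37 and 8 of 39, so a difference between the sexes is not shown. Postn rose by 1.99 in females and 2.29 in males, Acaa2 fell by 1.28 and 1.17, and Bgn rose by 1.37 and 1.32.

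**Figure D4:**
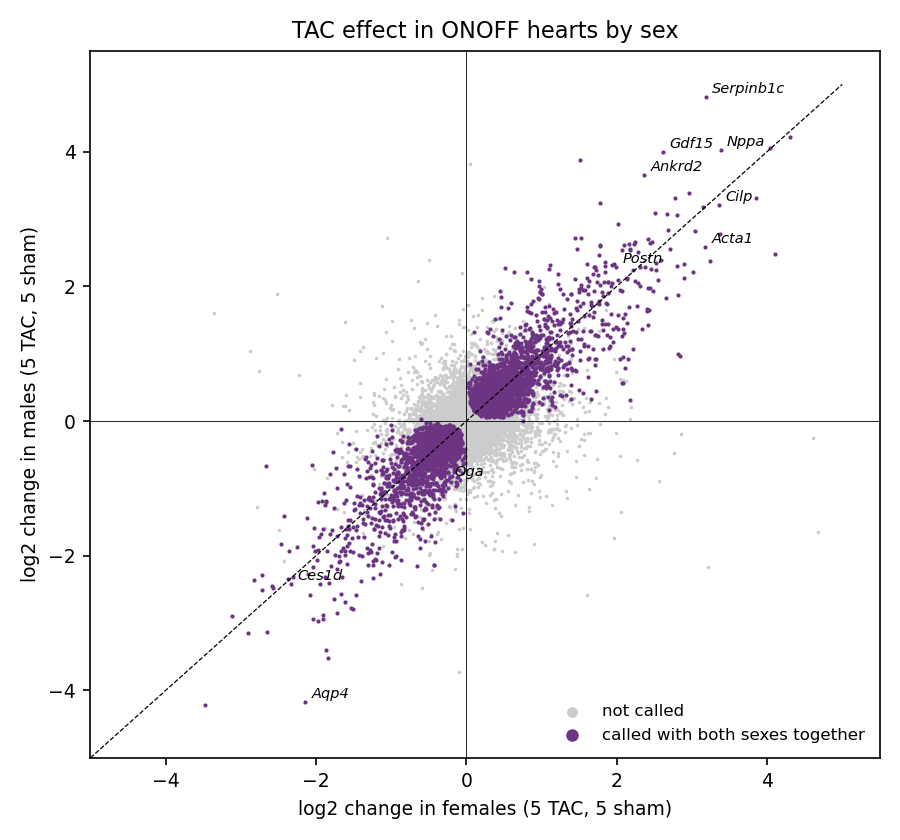
Log2 change (TAC minus sham) in 5 against 5 males (vertical axis) against that in 5 against 5 females (horizontal axis), with 1 point per tested gene and genes called over both sexes in purple. The dashed line marks equal change. The purple genes were chosen for their change averaged over both sexes, and the test of the difference between the sexes called 0 genes.

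TAC hearts varied among themselves. Library TAC F 1 was the least displaced from its sham mean in 1104 of the 4235 called genes (26.1%), TAC M 5 in 848 (20%) and TAC F 2 in 633 (14.9%), whereas TAC M 3 was so in 99 (2.34%). TAC F 1 also had the highest Myl7, and without it 4445 genes were called. Across the 10 TAC libraries, log2 values of Nppa and Postn had a Pearson correlation of 0.643 (permutation p = 0.0439, adjusted over 3 relations 0.0659) and a Spearman correlation of 0.491 (p = 0.153 by permutation, adjusted 0.23). For Nppa and Acta1 they were 0.689 (permutation p = 0.029, adjusted 0.0659) and 0.515 (p = 0.132 by permutation, adjusted 0.23), and for Nppa and Acaa2 -0.329 (permutation p = 0.357, adjusted 0.357) and -0.285 (p = 0.43 by permutation, adjusted 0.43). Without TAC F 1 and TAC F 2, the 2 libraries farthest from the median of Nppa, the Pearson values were 0.29, 0.0699 and -0.351 over 8 libraries, so the first 2 relations rest on those libraries.

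The ONOFF response was set against that of control hearts in a fit of all 40 libraries. The same test of the difference called 73 of 16395 genes (0.445%), 39 with a more positive and 34 with a more negative change in ONOFF hearts, with 1874 at an unadjusted p below 0.05. In this fit TAC changed 21.2% of genes in ONOFF hearts (10.7% higher, 10.6% lower) and 5.78% in control hearts (3.17% higher, 2.62% lower). All 73 were called for TAC in ONOFF hearts and 23 in control hearts, and the ONOFF change was the larger in size for 71. That count is not stable: single omissions gave 9 (without ONOFF TAC F 5) to 252 (without ONOFF TAC F 1), and it moved by over 1.5 times without each library except Con Sham F 4, Con Sham M 1, 3 and 4, Con TAC M 1 and 4, ONOFF Sham F 1 and 3, ONOFF Sham M 2, ONOFF TAC F 2 and ONOFF TAC M 2 and 5. Leaving out 3 zero-rich sham libraries of the controls gave 131 genes, and the count was 151 without 2 control female libraries with little Xist. The genes Grk5, Hhatl, Slco2a1, Bcr, Ttll1, Ryr3, P3h2 and Hopx were called in the full set and in all 40 single omissions, and were singled out for that.

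Of those 8 genes, Grk5 rose by 0.87 in ONOFF hearts against 0.06 in control hearts, a difference of 0.81 (adjusted p = 0.000373). The rise of Ryr3 was 2.87 against 0.12 (difference 2.75, adjusted p = 0.0195) and that of P3h2 1.39 against 0.30 (1.09, adjusted p = 0.0195). Slco2a1, a prostaglandin transporter, stood at 74.0 to 167 (median 138) in ONOFF sham and 171 to 308 (median 234) in ONOFF TAC hearts, and its changes were 0.89 and -0.42 (1.31, adjusted p = 0.00481). The signalling gene Bcr changed by 0.50 and -0.22 (0.72, adjusted p = 0.0195). Hopx, a homeodomain-only cofactor of cardiac transcription, fell from 7259 to 10802 (median 8670.0) to 2996 to 6695 (median 3960.4) in ONOFF hearts without overlap, by 1.12 against 0.29 in control hearts (-0.83, adjusted p = 0.0199). Hhatl, a muscle gene related to palmitoyl transferases, stood at 5143 to 6410.2 (median 5566) in ONOFF sham and 2469 to 4013 (median 2952) in ONOFF TAC hearts, a change of -0.93 against -0.36 (-0.58, adjusted p = 0.00243). The tubulin glutamylation gene Ttll1 changed by -1.10 against -0.25 (-0.85, adjusted p = 0.0195). Mean sham values, control then ONOFF, were 1682 and 1445 for Grk5, 117 and 69.0 for Ryr3, and 404 and 417 for P3h2. For Slco2a1 they were 156 and 127, and for Bcr 621 and 519. Hopx stood at 9785 and 8854, Hhatl at 5316 and 5646, and Ttll1 at 2797 and 3232. The part of these sham levels in the differences was not tested. With replicate numbers as a block Ryr3 and Hopx lost the call (adjusted p = 0.057 each), and the other 6 kept it in every alternative tried. Leaving out the Myl7-rich libraries was not among these alternatives, as it was done only for the TAC effect within ONOFF hearts.

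**Figure D5:**
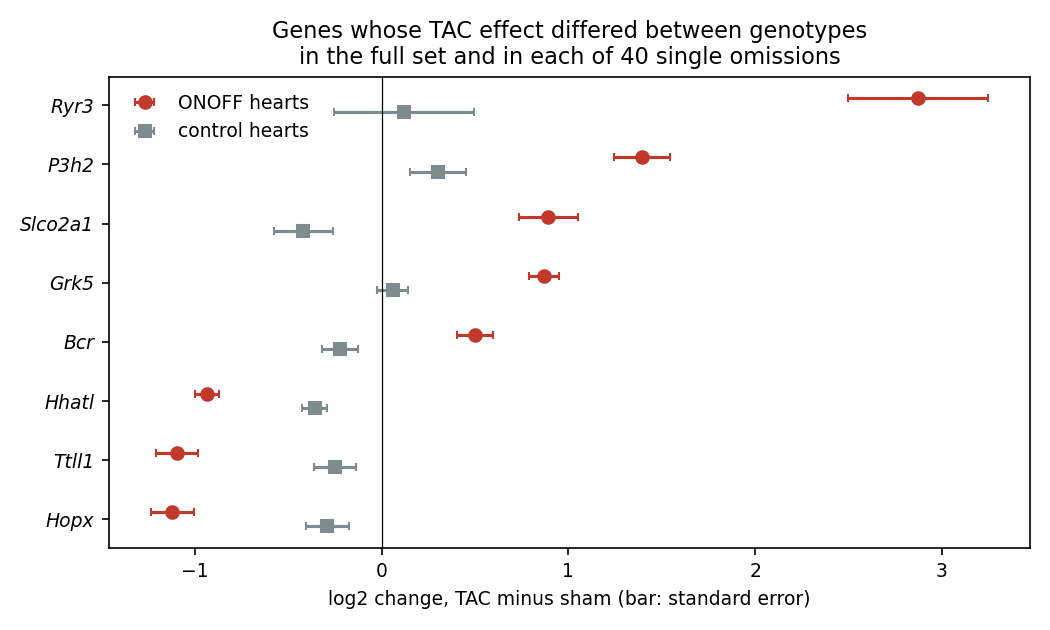
Log2 change after TAC (horizontal axis, bar for the standard error from the fit of 40 libraries) in ONOFF and control hearts for 8 genes whose TAC effect differed between genotypes in the full set and in each of 40 single omissions. In all 8 the ONOFF change lies farther from 0, from 2.87 for Ryr3 to -1.12 for Hopx.

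For the gene lists the difference between genotypes was mostly short of the threshold for single genes. Over all genes, 1874 of 16395 differences had an unadjusted p below 0.05. Complex I genes had a median change of -0.34 in ONOFF and -0.03 in control hearts, with 0 of 37 differences called and 21 at an unadjusted p below 0.05. Collagen genes had medians of 0.69 and 0.31 with 0 of 28 differences called, and activated fibroblast markers 1.35 and 0.45 with 4 of 13 called. Those 4, Lox, Postn, Thbs4 and Ccn4, lost the call in 9, 27, 29 and 29 of 40 single omissions and with replicate numbers as a block. Ccn4 rose by 0.52 in ONOFF hearts (limma adjusted p = 0.0341), and by 0.79 without the Myl7-rich libraries. The rise of 0.52 lost its call under quantile normalization (adjusted p = 0.0629). The call was also lost in the single omissions of ONOFF sham F 2, F 3, F 5, M 1, M 2 and M 5. The same held for ONOFF TAC F 4, M 1, M 3 and M 4. In control hearts Ccn4 changed by -0.55 and was not called (adjusted p = 0.0647). Mitochondrially encoded transcripts stood at -0.35 and -0.30, with 0 of 15 differences at an unadjusted p below 0.05, and potassium channel genes at -0.33 and -0.32 with 5 of 22. Nppa changed by 3.71 and 2.29, a difference of 1.42 that did not pass (adjusted p = 0.153), and Nppb by 1.87 and 1.54 (0.33, adjusted p = 0.698).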

How the data were processed

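Per the labels' protocols, total RNA was extracted from left ventricles with a fibrous tissue kit and made into stranded libraries. The submitters' processing notes list FastQC 0.11.7, MultiQC 0.8, STAR 2.7.3a, Salmon, R 4.3.1, DESeq2 and build GRCm39, with no role given here. The deposited values are normalized counts, treated as a signal: whole reads could not be recovered from them, so no count model was run. They were tested as log2(value + 1) with limma 3.58.1 in R 4.3.3 (trend and robust settings), with sex and operation as terms over the 20 ONOFF libraries. A fit of 4 group means gave the sexes, and one of 8 groups over 40 libraries gave the difference from control hearts. Alternatives changed the pseudocount, the filter, the normalization, library weights, blocks and the libraries used. P-values were adjusted by the Benjamini-Hochberg method over all genes tested, and the pipeline was tested on simulated data. The table has 22676 genes, 41 without a symbol, and 0 columns of other samples. The members and the 46 gene lists were chosen with earlier results of these data known. Named genes were the 20 largest rises and 20 largest falls among called genes averaging 100 or more in their higher group and moving one way in both sexes, predicted genes left out, any tested list member, up to 10 genes per direction with the smallest p in the difference tests, and 9 genes always. Some genes that the rule takes in are not reported here. Genes singled out for being called in all omissions were chosen after their values were seen.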

Additional observations from a re-analysis of the deposited data

Results flagged for a closer look

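Of 88 groups of 10 values shown by library, 8 had one library standing far from the rest, and chance flags about 1 in 20 groups. Among sham hearts, sham F 1 had the highest Acaa2 (30831 against 25912 to 28123 in the others) and the highest Gdf15 (563 against 74.3 to 248). Sham M 2 was highest for Ankrd1 (138466 against 72468 to 106806), sham F 4 for Cox7a1 (29188 against 16585 to 21919.6) and sham M 3 for Ltbp2 (691 against 198 to 445). Among TAC hearts, TAC F 1, the library richest in Myl7, was highest for Hhatl (4013 against 2469 to 3113) and Hopx (6695 against 2996 to 4516), which both fell after TAC. TAC M 5 was highest for Lox (974 against 122 to 479).

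The TAC effect differed between ONOFF and control hearts in 19 of the genes named above, by the test of the difference itself. The log2 differences, ONOFF minus control, of 8 genes called in all 40 single omissions were 2.75 for Ryr3, 1.31 for Slco2a1, 1.09 for P3h2, 0.81 for Grk5, 0.72 for Bcr, -0.58 for Hhatl, -0.83 for Hopx and -0.85 for Ttll1. The matrix genes Bgn (0.85), Lox (1.26), Postn (1.30), Thbs4 (1.496) and Ccn4 (1.07) lost the call in 1, 9, 27, 29 and 29 of the 40 omissions. Bgn lost it without ONOFF TAC F 5. Of the stretch-responsive genes, Fhl1 (1.10), Xirp2 (0.69) and Synpo2l (0.77) lost it in 9, 14 and 27, and Npr3 (0.85), Hk1 (0.40) and Acaa2 (-0.64) in 4, 24 and 32. Npr3 lost it without Con TAC M 3, ONOFF TAC F 4, ONOFF TAC F 5 or ONOFF TAC M 3. With replicate numbers as a block, Bgn and Npr3 lost the call too (adjusted p = 0.057 and 0.0587), as did Lox, Postn, Thbs4, Ccn4, Xirp2, Synpo2l, Hk1 and Acaa2 (0.0587 to 0.0875), and Ryr3 and Hopx of the 8 genes above (0.057 each).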

How the results depend on the processing

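Over the alternatives, the count of genes changed by TAC was 3480 to 5240 against 4235, and single omissions gave 3782 to 4445. Single omissions gave 1923 to 3003 genes in females, 2006 to 2604 in males, 0 to 1 for the difference between the sexes, and 9 to 252 for the difference from control hearts. Library weights raised the male count from 2494 to 3887. The count of 73 for the difference from control hearts was 30 with no filter, 120 under quantile normalization, 449 with library weights, 8 with the replicate block, 131 without 3 control sham libraries rich in zeros and 151 without 2 control libraries poor in Xist. The cause was not tested. With the replicate block the counts were 3735 for both sexes, 2158 for females, 2094 for males and 0 for their difference. Same-numbered sham and TAC libraries had correlations of -0.163 to 0.13 and matched best in 2 of 10 cases, so the numbers were not taken to pair the mice. Of the named TAC effects, Fhl3, Flt1 and Ogn lost the call under that block. Library names share prefixes whose meaning is not stated. ONOFF TAC F 2, F 3, F 4 and M 1 share the prefix F15, which no sham library has. With the prefix as a random block (within-prefix correlation 0.0436), Flt1 alone of the named TAC effects lost the call (limma adjusted p = 0.0559). With library weights, the lower counts rose from 4 to 7 for calcium cycling genes and from 4 to 7 for nerve markers. For Nppa and Postn the correlation was 0.491 by Spearman and 0.29 without the 2 farthest libraries, with single omissions from 0.534 to 0.741. For Nppa and Acta1 it was 0.515 by Spearman, 0.0699 without those libraries and 0.59 centred within sex, with single omissions from 0.537 to 0.78. Depth is unknown, so changes in genes with low values are the least certain.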
